A study of Rattus norvegicus with 17 samples.

Results

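The liver genes described here encode the extracellular matrix and mark the stellate cell, the mesenchymal cell of the liver that stores retinoids and lays down matrix. A list of 38 symbols covered collagens, proteoglycans, other matrix proteins, proteases with their inhibitors, contractile and cytoskeletal proteins, and stellate or mesenchymal markers. A member was a probe set, the group of probes that together report 1 transcript, whose platform annotation gave one of these symbols as its only gene, and the set of highest mean was kept for each gene. This rule found 33 of the 38 genes, among 14557 genes in all, each through 1 probe set. Col5a1, Col6a3, Timp2, Acta2 and Lrat had no such probe set and were not analysed here.

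Total RNA of whole liver was hybridised to Affymetrix arrays, 1 array for each of 17 male Wistar rat pups killed 24 days after birth, and 1 pup came from each litter. Every dam had eaten a choline-deficient AIN-93 M diet for 16 weeks before mating, a treatment used to give fatty liver, and had been mated with a healthy Wistar male on the standard diet. The first letter of a group is the dam's diet in pregnancy and the second her diet in lactation, where N is the standard AIN-93 G diet with adequate choline and D the diet deficient in choline. There were 4 pups in NN, 4 in ND, 5 in DN and 4 in DD, and an array is named by its group and replicate number. All groups thus share the deficient period before mating, and no group came from a dam without it. Values are signals on the log2 scale, so a difference of 1 is a doubling, and they are relative to the whole array.

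Collagens I and III form the fibres of scar tissue, collagen IV the basement membrane, and small leucine-rich proteoglycans such as decorin coat fibres and bind growth factors. Quiescent stellate cells lie between hepatocytes and the sinusoidal endothelium. After injury they become contractile, respond to PDGF and TGF-beta, and raise the synthesis of collagen and of protease inhibitors. In RNA from whole liver, fewer cells of a type and less RNA per cell cannot be told apart.

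The tissue matched its label. Albumin (Alb), made by hepatocytes, had signals of 11.51 to 11.77, and all 7 hepatocyte markers found had means of at least 9.85, on a table whose values ran from 0.42 to 12.13. One free-text field of the sample records names a prostate cancer cell line instead, which these signals do not bear out. Among stellate cell markers, Reln had a mean of 5.24, Pdgfrb of 4.86, Ngfr of 3.36 and Des of 3.05, all above the 50th percentile of all values (2.58). Array medians lay between 2.50 and 2.71. The spread of an array, taken as the SD over its probe sets, averaged 1.70 ± 0.057 (SD, n = 4) in NN, 1.74 ± 0.041 (n = 4) in ND, 1.75 ± 0.029 (n = 5) in DN and 1.67 ± 0.052 (n = 4) in DD. Precision is limited by how few arrays a group holds.

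All 33 members passed the filter for low signal, which asked for a value above the 25th percentile (1.73) in at least 4 arrays. Of these, 30 had a mean above the 50th percentile. The other 3, Lum (1.57), Postn (2.03) and Lox (2.21), lay near the floor, a share of 9.09% against 31.4% of the 12912 genes tested. Lum, which encodes the keratan sulphate proteoglycan lumican, exceeded the 25th percentile in exactly 4 arrays, of which 3 were DD arrays and 1 a DN array. It therefore entered the tests through the groups in which it was high, so it is described by its values and left out of the counts at an unadjusted p and of groups that do not overlap. Signals of different probe sets depend on their probes and are not set against each other here.

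**Figure D1:**
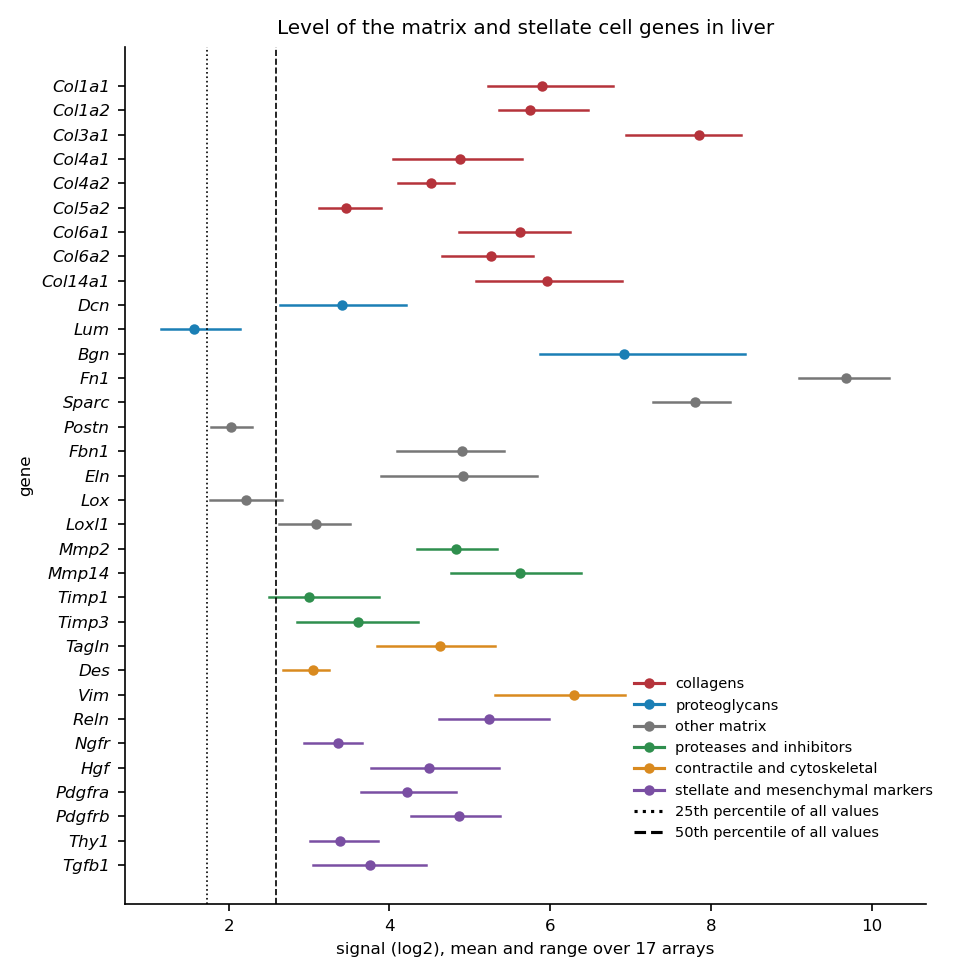
Mean signal (log2, point) and range over 17 arrays (line) of each of the 33 genes, coloured by role, with the 25th and 50th percentiles of all values as vertical lines. Lum straddles the 25th percentile, Postn lies between both lines, and the range of Lox crosses the 50th.

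Promoter sequence was available from RefSeq (assembly GRCr8) for 18 of the 33 members. The stretches of 250 bases before the start are shown for genes whose signals are described in detail below, with collagen IV as the stretch of 76 bases between the starts of Col4a1 and Col4a2, which are transcribed away from each other. Each is written 5′ to 3′ on the strand of its gene, collagen IV on the strand of Col4a1. Capitals mark a match on either strand to CCAAT or to TATAAA, and every CCAAT shown lies on the other strand, so that the letters printed are its reverse complement.
Col1a2 (chr4:33518307-33518556, plus strand): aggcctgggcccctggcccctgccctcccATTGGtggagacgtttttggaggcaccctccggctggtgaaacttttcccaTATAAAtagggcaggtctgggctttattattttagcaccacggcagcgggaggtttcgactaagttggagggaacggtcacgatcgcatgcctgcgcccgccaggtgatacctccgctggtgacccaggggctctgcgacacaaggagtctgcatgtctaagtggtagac
Col4a1-Col4a2 (chr16:84885521-84885596, plus strand): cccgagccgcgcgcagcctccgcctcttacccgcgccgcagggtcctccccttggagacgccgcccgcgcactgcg
Lum (chr7:34245456-34245705, plus strand): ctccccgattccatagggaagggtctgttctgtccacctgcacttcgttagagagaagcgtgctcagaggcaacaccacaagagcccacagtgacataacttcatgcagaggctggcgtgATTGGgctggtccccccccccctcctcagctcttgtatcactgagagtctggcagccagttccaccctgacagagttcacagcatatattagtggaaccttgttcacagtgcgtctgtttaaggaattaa
Vim (chr17:81577011-81577260, plus strand): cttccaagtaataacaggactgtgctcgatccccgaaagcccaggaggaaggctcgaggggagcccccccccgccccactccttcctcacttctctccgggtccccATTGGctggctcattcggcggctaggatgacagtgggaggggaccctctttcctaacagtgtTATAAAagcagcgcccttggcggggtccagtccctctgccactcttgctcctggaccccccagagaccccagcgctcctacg
Reln (chr4:13628318-13628567, plus strand): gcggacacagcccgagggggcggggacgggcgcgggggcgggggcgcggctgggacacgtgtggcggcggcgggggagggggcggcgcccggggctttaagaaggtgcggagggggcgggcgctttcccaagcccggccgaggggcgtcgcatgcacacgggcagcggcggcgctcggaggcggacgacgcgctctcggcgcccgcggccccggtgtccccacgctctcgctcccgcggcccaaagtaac
Hgf (chr4:19700468-19700717, minus strand): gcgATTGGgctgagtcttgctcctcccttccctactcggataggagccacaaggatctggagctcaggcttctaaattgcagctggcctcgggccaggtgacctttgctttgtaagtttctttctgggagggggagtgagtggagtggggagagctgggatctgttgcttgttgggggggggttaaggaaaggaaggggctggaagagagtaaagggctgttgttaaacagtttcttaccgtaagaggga
Positions are counted back from the start to the first base of a match. The Col1a2 stretch held CCAAT at 221 and TATAAA at 170 bases before the start, and that of Vim held them at 144 and 82. Lum had CCAAT at 130 and Hgf at 247 bases before the start. No match to either motif lay in the Reln stretch or between the collagen IV starts. On either strand, CCAAT occurred in 8 of the 18 members' stretches (44.4%) and in 34.0% of 33469 promoters of the same length, and TATAAA in 3 of 18 (16.7%) and 12.9%. A match is a run of letters and was not tested for binding.

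No member passed a Benjamini-Hochberg adjusted p under 0.05 in any of 9 comparisons (limma over all 12912 genes). These set each group against each other one (6 comparisons), averaged the effect of a deficient diet over the other period (1 for pregnancy, 1 for lactation), and took the interaction, which is DD minus DN less ND minus NN. The share of all genes called was 0.00774% (1 gene) in DD against DN and 0% in each of the others. The smallest adjusted p of a member from limma was 0.114 in the interaction and 0.145 in DD against DN, and it lay between 0.275 and 1.0 in the rest. Values below are therefore described as measured, and an unadjusted p under 0.05 is named as such. NN, ND, DN and DD arrays each enter several comparisons, so these are not independent of one another.

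The clearest arrangement of the members was a low position of NN, the pups whose dams received adequate choline in both pregnancy and lactation. NN had the lowest of the 4 group means in 16 of 33 members, against 17.8% of all genes, and the highest in 0 of 33, against 27.2% of all genes. The 16 included collagens, proteoglycans and contractile genes, and without Lum there were 15 of 32. The classes differed in this. Of the 9 collagens found, 4 were lowest in NN and 4 in DN. Of the 7 stellate and mesenchymal markers found, 1 was lowest in NN, 2 in DN and 4 in DD. ND had the lowest mean in 1 member (17.2% of all genes), DN in 7 (33.6%) and DD in 9 (31.4%). ND had the highest mean in 13 members (21% of all genes), DD in 11 (26.5%) and DN in 9 (25.3%). Single NN arrays differed in this: NN 1 was above the members' own means in 6 of 33 genes, NN 3 in 7, NN 4 in 15 and NN 2 in 16.

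Among the proteoglycans, Dcn, which encodes decorin, had signals of 3.00, 3.07, 2.64 and 3.00 in NN and of 3.40, 3.26, 3.57 and 3.76 in ND. In DN its signals were 3.14, 3.74, 4.20, 3.46 and 3.44, and in DD 3.40, 3.87, 3.54 and 3.40. Every NN array was below every one of the 13 other arrays, an arrangement seen in 4 of 12912 genes (0.031%), while ND, DN and DD overlapped. The mean of Dcn was 2.93 ± 0.19 (SD, n = 4) in NN, 3.50 ± 0.22 (n = 4) in ND, 3.60 ± 0.40 (n = 5) in DN and 3.55 ± 0.22 (n = 4) in DD. Against NN the difference was 0.57 ± 0.19 (SE) in ND, 0.67 ± 0.18 in DN and 0.62 ± 0.19 in DD, or 1.48-fold, 1.59-fold and 1.54-fold. The 3 differences share the NN arrays, and their adjusted p from limma was 0.889, 0.275 and 0.999. The interaction of Dcn was -0.61 ± 0.26 (unadjusted p = 0.0327, adjusted p = 0.213, limma).

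Lum had signals of 1.27, 1.42, 1.37 and 1.42 in NN, 1.39, 1.40, 1.60 and 1.41 in ND, 1.45, 1.16, 2.14, 1.64 and 1.53 in DN, and 1.99, 2.03, 1.67 and 1.87 in DD. All DD arrays were above all NN and ND arrays and overlapped DN through DN 3. DD exceeded NN by 0.52 ± 0.16 and ND by 0.44 ± 0.16, and most of the values compared lie under the floor of 1.73. Its average pregnancy effect was 0.33 ± 0.11, given like the other values of Lum as a description. Bgn, the gene of biglycan, had signals of 7.03, 7.47, 6.22 and 7.02 in NN and of 7.16, 6.62, 7.02 and 7.59 in ND. It had 7.65, 8.42, 6.02, 7.14 and 6.20 in DN and 6.67, 7.28, 5.87 and 6.28 in DD. Its groups overlapped throughout, and DN alone spanned the highest array and an array near the lowest. The difference of DD from DN was -0.56 ± 0.41.

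**Figure D2:**
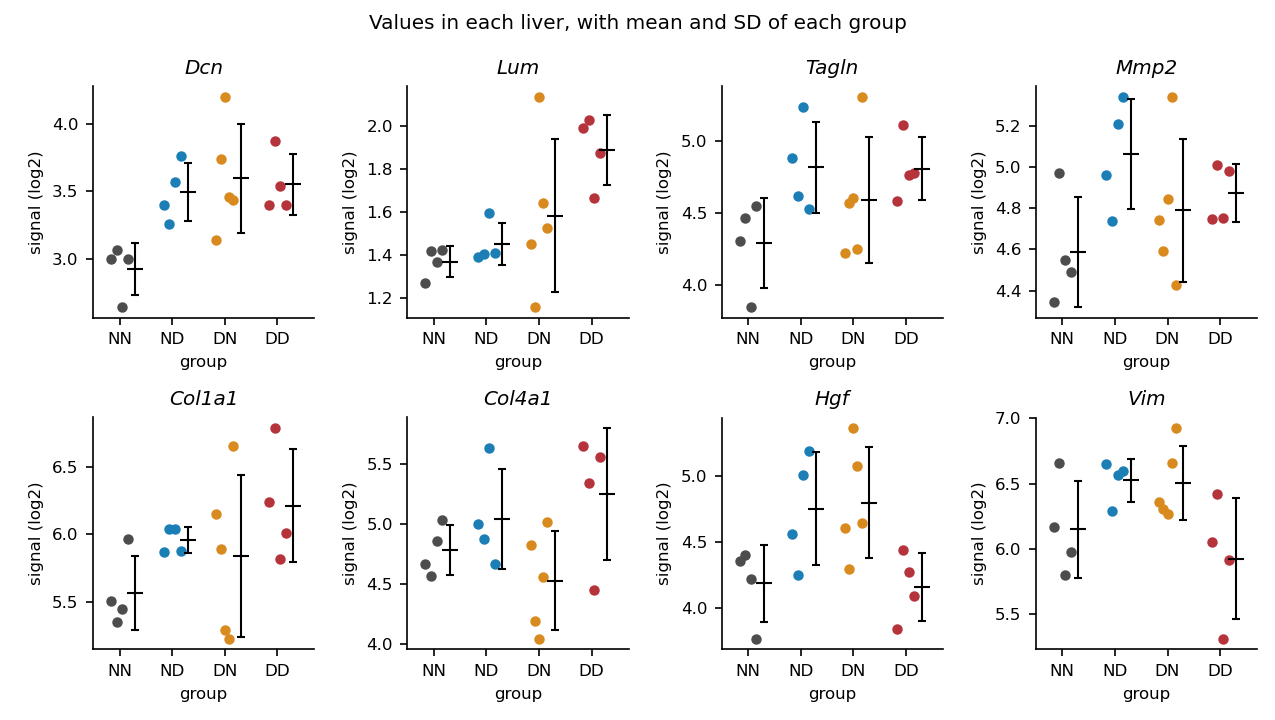
Signal (log2) of selected members in each of the 17 arrays by group (points), with the mean and SD of each group beside them in black. The 4 NN points of Dcn lie between 2.64 and 3.07, below all others, and the 4 DD points of Lum lie above all NN and ND points.

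Collagen means were higher than in NN for most of the genes in DD and ND, and none of these differences passed the adjusted test. In DD against NN, 9 of 9 collagens found were higher, with a median difference of 0.32 and a range of 0.08 to 0.64. In ND against NN 7 of 9 were higher (median 0.26), and in DN against NN 4 of 9 (median -0.03). DD had the highest of the 4 means in 6 of the 9 collagens and the lowest in 0. On the average effect of the deficient lactation diet, 9 of 9 were higher (median 0.21), of which Col4a1, Col4a2 and Col6a1 had an unadjusted p under 0.05 and none passed the adjusted test. The median over all genes tested was -0.03 in DD against NN and -0.0033 for the lactation effect. Of all genes, 43.8% were higher in DD than in NN. For the lactation effect 49% were higher, and 1.6% were higher at an unadjusted p under 0.05 (limma). The collagens correlated with each other across arrays (median r 0.40), so their directions are not independent.

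Col1a1, the alpha 1 chain of collagen I, had signals of 5.50, 5.35, 5.45 and 5.97 in NN and of 6.24, 6.79, 5.82 and 6.01 in DD. NN 4 lay within the DD range and the other 3 NN arrays below it. The difference was 0.64 ± 0.26, or 1.56-fold (unadjusted p = 0.0254, adjusted p = 0.999, limma). Its partner chain Col1a2 had means of 5.64 ± 0.24 (SD, n = 4) in NN and 5.98 ± 0.39 (n = 4) in DD. Col3a1, of collagen III, had signals of 7.78, 7.30, 7.76 and 7.98 in NN, 8.10, 7.71, 8.34 and 7.81 in ND, 7.84, 7.33, 6.94, 8.07 and 8.11 in DN, and 8.37, 8.08, 7.56 and 8.28 in DD. These groups overlapped, and DD exceeded NN by 0.37 ± 0.25. Col5a2, of the collagen V that nucleates fibres, had 3.46, 3.32, 3.34 and 3.62 in NN, 3.57, 3.29, 3.46 and 3.26 in ND, 3.48, 3.13, 3.46, 3.28 and 3.67 in DN, and 3.56, 3.51, 3.54 and 3.89 in DD. Only DD 4 stood above the arrays of the other groups.

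Col4a1, a chain of the basement membrane collagen, had signals of 4.67, 4.57, 4.86 and 5.04 in NN and of 5.00, 4.87, 5.64 and 4.67 in ND. It had 4.83, 4.20, 4.05, 4.56 and 5.02 in DN and 5.65, 5.35, 4.45 and 5.56 in DD. Of the DD arrays 3 were above every DN array and DD 3 was within the DN range. DD exceeded DN by 0.72 ± 0.25, or 1.65-fold (unadjusted p = 0.0105, adjusted p = 0.164, limma), and the 95% interval of the difference was 0.19 to 1.25. Col4a2 exceeded DN by 0.23 ± 0.12 in DD and by 0.28 ± 0.12 in ND. Col6a2, of the beaded microfibril collagen VI, was 5.06 ± 0.27 (SD, n = 5) in DN and 5.52 ± 0.26 (n = 4) in DD, a difference of 0.46 ± 0.15 (unadjusted p = 0.00539, adjusted p = 0.145, limma). Col14a1, a collagen that sits on fibril surfaces, went the other way among collagens in DD against DN, by -0.29 ± 0.26, the only one of the 9 that was lower.

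Among the other matrix genes, Fn1, which encodes fibronectin and is also made by hepatocytes for plasma, had signals of 9.65, 10.04, 9.25 and 9.62 in NN and of 9.83, 9.79, 9.54 and 9.98 in ND. It had 9.96, 10.22, 9.61, 9.91 and 9.46 in DN and 9.40, 9.80, 9.37 and 9.09 in DD. DD had 3 arrays below all DN arrays and DD 2 within them, and the difference was -0.42 ± 0.18 (unadjusted p = 0.0333, adjusted p = 0.233, limma). Eln, the gene of elastin, differed by 0.66 ± 0.33 in the same comparison, with a range of 3.90 to 5.19 in DN and 4.66 to 5.83 in DD. Fbn1, of the microfibril protein fibrillin 1, exceeded NN by 0.29 ± 0.24 in ND, 0.31 ± 0.23 in DN and 0.43 ± 0.24 in DD. Loxl1, an enzyme that cross-links elastin, exceeded NN in DN by 0.33 ± 0.15 (unadjusted p = 0.041, adjusted p = 0.361, limma). Sparc, a collagen-binding protein, stayed between 7.28 and 8.24 in all arrays, with overlapping groups. Postn, the matrix protein periostin, had 1.98, 1.99, 2.04 and 1.96 in NN, 1.78, 2.29, 1.98 and 1.97 in ND, 1.99, 1.93, 2.15, 1.96 and 2.08 in DN, and 2.25, 2.09, 1.90 and 2.12 in DD. Lox, the lysyl oxidase that cross-links collagen, ranged from 1.77 to 2.67. Both lay near the floor, and all their groups overlapped.

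None of the 4 proteases and inhibitors found passed the adjusted test, and 4 of 4 were higher in ND than in NN (median 0.24). Mmp2, a gelatinase secreted by mesenchymal cells, ranged from 4.34 to 4.97 in NN and from 4.74 to 5.34 in ND, and ND exceeded NN by 0.47 ± 0.19 (unadjusted p = 0.0203, adjusted p = 0.889, limma). Mmp14, the membrane protease that activates it, had 5.76, 5.81, 5.44 and 5.65 in NN, 6.38, 5.20, 5.83 and 5.56 in ND, 6.28, 5.86, 5.02, 5.66 and 5.33 in DN, and 5.95, 5.62, 4.76 and 5.49 in DD. Its groups overlapped in every pair. Timp1, an inhibitor of these proteases that rises in liver scarring, had 2.74, 3.37, 2.87 and 2.71 in NN, 3.04, 2.61, 2.67 and 3.86 in ND, 3.05, 3.19, 2.89, 3.14 and 2.87 in DN, and 2.50, 3.45, 3.00 and 3.10 in DD. Its group means differed by no more than 0.13, less than the SD within any group. Timp3, an inhibitor bound to matrix, ranged from 2.85 to 4.36 and overlapped in every pair of groups.

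Of the contractile and cytoskeletal genes, Tagln, which encodes transgelin of smooth muscle and activated stellate cells, had signals of 4.31, 4.47, 3.85 and 4.55 in NN and of 4.88, 4.62, 5.24 and 4.53 in ND. It had 4.22, 4.57, 4.60, 4.25 and 5.31 in DN and 4.58, 5.11, 4.77 and 4.78 in DD. DD lay wholly above NN, ND overlapped NN by 1 array (ND 4), and DN mixed with both. The difference from NN was 0.52 ± 0.22 in DD and 0.53 ± 0.22 in ND, with adjusted p of 0.999 and 0.889 (limma). Markers of vascular smooth muscle, which also makes transgelin, had 6 of 10 genes found, all passing the filter for low signal. Only Mylk had a clear signal (mean 6.04). Actg2 (2.51), Synpo2 (2.44), Kcnmb1 (2.02), Pln (1.81) and Lmod1 (1.80) lay near the floor. The mean level over the 6, which Mylk raises, was 2.71 to 2.85 in NN and 2.75 to 2.92 in DD. The part of smooth muscle in the Tagln difference was not tested. Des, the desmin gene used to mark rat stellate cells, had 2.82, 3.08, 3.14 and 3.05 in NN, 2.84, 3.21, 3.25 and 3.03 in ND, 3.16, 3.10, 2.67, 3.05 and 3.22 in DN, and 3.05, 3.23, 2.87 and 3.05 in DD. Its 4 group means lay between 3.03 and 3.08.

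A second arrangement of means, with the singly deficient groups high and both NN and DD low, was seen in Hgf, Vim, Fn1 and Reln. At an unadjusted p under 0.05 (limma), 5 of the 32 members other than Lum had an interaction below 0, against 11.9% of all genes. Another 2 had one above 0, against 8.12%. Both counts were near the shares of all genes and are not read as particular to the members. With array spread as a covariate these counts were 1 and 0. Dcn was among the 5, but its DD mean (3.55) was near those of ND (3.50) and DN (3.60). Hgf, the hepatocyte growth factor that stellate cells secrete, had signals of 4.36, 4.40, 4.22 and 3.77 in NN and of 4.56, 4.25, 5.01 and 5.19 in ND. It had 4.61, 4.30, 5.36, 5.07 and 4.64 in DN and 3.84, 4.44, 4.28 and 4.09 in DD. All groups overlapped, but the 5 highest arrays were ND or DN arrays. Against NN, Hgf was higher by 0.57 ± 0.24 in ND and by 0.61 ± 0.22 in DN, and DD was lower than DN by 0.64 (difference -0.64 ± 0.22, 1.55-fold, adjusted p = 0.166, limma). The interaction was -1.20 ± 0.33 (unadjusted p = 0.00167, adjusted p = 0.114, limma), with a 95% interval of -1.89 to -0.52.

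Vim, the vimentin gene of mesenchymal, endothelial and immune cells, had signals of 6.17, 6.66, 5.80 and 5.98 in NN and of 6.65, 6.29, 6.56 and 6.59 in ND. It had 6.36, 6.31, 6.27, 6.66 and 6.93 in DN and 6.05, 6.42, 5.31 and 5.92 in DD. Only DD 2 of the DD arrays entered the range of ND and DN. DD differed from DN by -0.58 ± 0.21 and from ND by -0.60 ± 0.22 (adjusted p of 0.170 and 0.550, limma), and the interaction was -0.95 ± 0.30 (unadjusted p = 0.00566, adjusted p = 0.131). Without NN 2, the interaction passed the adjusted test for both Hgf (-1.27, adjusted p = 0.0439) and Vim (-1.12, adjusted p = 0.0395), in a fit in which 639 genes passed instead of 0.

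Reln, the reelin gene that marks stellate cells in rodent liver, had signals of 5.06, 5.63, 4.94 and 4.72 in NN and of 5.27, 4.77, 5.31 and 5.96 in ND. It had 5.41, 5.58, 5.34, 5.98 and 5.24 in DN and 4.85, 5.53, 4.62 and 4.88 in DD. The DD arrays other than DD 2 were below all DN arrays, with a difference of -0.54 ± 0.24 (unadjusted p = 0.0350, adjusted p = 0.236, limma). Ngfr, the p75 neurotrophin receptor on stellate cells, had 3.40, 3.37, 3.40 and 3.65 in NN, 3.17, 3.45, 3.52 and 2.93 in ND, 3.20, 3.05, 3.25, 3.31 and 3.40 in DN, and 3.41, 3.49, 3.66 and 3.37 in DD. Its interaction had the opposite sign to that of Hgf, at 0.43 ± 0.19 (unadjusted p = 0.0336, adjusted p = 0.215, limma). Pdgfrb, the receptor through which PDGF acts on stellate cells, was lower in DD than in ND by 0.48 (difference -0.48 ± 0.25). Thy1, a marker of portal fibroblasts, had an average pregnancy effect of -0.27 ± 0.098 (unadjusted p = 0.0145, adjusted p = 1.0, limma). Tgfb1 exceeded NN by 0.35 ± 0.21 in DN, and Pdgfra had group means between 4.13 and 4.31. Of the 7 stellate and mesenchymal markers found, 5 were lower in DD than in DN (median -0.27) and 6 lower than in ND (median -0.26), while DN had the highest mean in 4. Of all genes, 51.6% were higher in DD than in DN and 47.1% higher in DD than in ND. A separate list of 15 additional stellate cell markers did not share this direction. In DD, 10 of these 15 were higher than in DN (median 0.08) and 8 higher than in ND (median 0.02).

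Array spread and the markers of other cells are given here beside the values of Hgf, Vim, Fn1 and Reln. Array spread was lowest on average in DD and highest in DN. Across the 17 arrays it correlated with Reln (r = 0.927, permutation p = 1e-05, the smallest that the permutations can give; rho = 0.895, permutation p = 2e-05; adjusted over 33 members, 0.00033 for each). It also correlated with Vim (r = 0.853, rho = 0.850) and Fn1 (r = 0.805, rho = 0.873), with adjusted permutation p of 0.000495 and 0.00088 for r and 0.00033 for each rho. Without NN 3 and DD 3, the arrays farthest from the median spread, r was 0.927, 0.752 and 0.774. In all, 11 of 33 members correlated with spread at an adjusted p under 0.05, 10 of them positively, and Hgf was among them (r = 0.586) while Dcn (r = 0.322), Col1a1 (r = -0.082) and Col4a1 (r = -0.228) were not. Correlation with spread was taken for the members only. The share of all genes that would pass is not known, so this count cannot be read as particular to the members. With array spread as a covariate, the DD minus DN difference was -0.17 for Vim, -0.09 for Fn1, 0.038 for Reln and -0.45 for Hgf, and the interaction was -0.91 for Hgf, -0.30 for Vim, -0.04 for Fn1 and 0.13 for Reln. In that fit Dcn exceeded NN by 0.48 in ND, 0.57 in DN and 0.68 in DD, and Col4a1 exceeded DN by 0.73 in DD. Its part in the differences was not tested further.

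**Figure D3:**
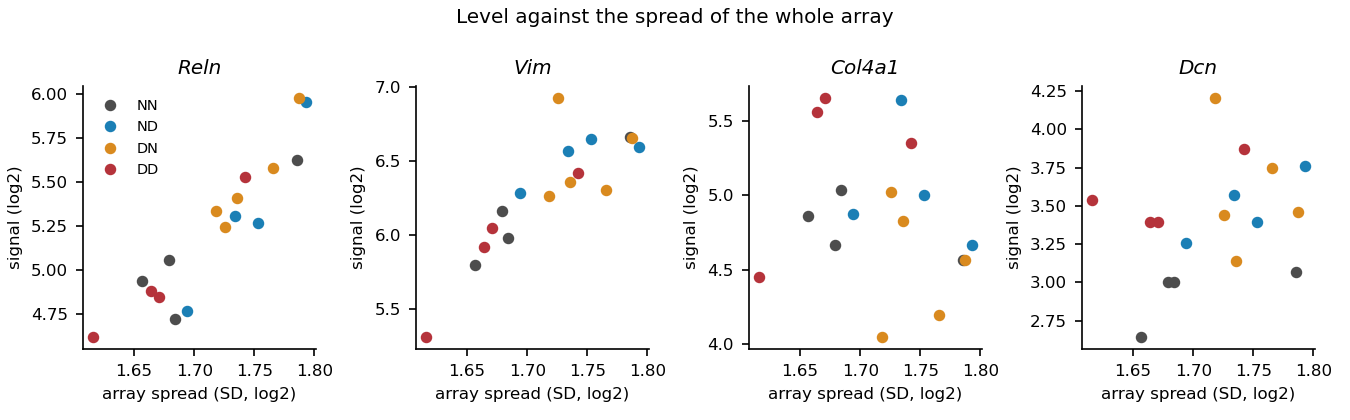
Signal (log2) of Reln, Vim, Col4a1 and Dcn against the SD over all probe sets of the same array (log2), 1 point per array, coloured by group. Reln and Vim climb with array spread (r of 0.927 and 0.853), while Dcn (r = 0.322) and Col4a1 (r = -0.228) are scattered.

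Markers of sinusoidal endothelium, the cell layer beside which stellate cells lie, had 9 of 12 genes found and none below the floor. Their mean level ran from 5.37 to 5.98 in NN, 5.53 to 5.95 in ND, 5.56 to 5.97 in DN and 5.06 to 5.79 in DD. All 9 were lower in DD than in DN (median -0.60), where 51.6% of all genes were higher. Of these, 4 were lower at an unadjusted p under 0.05 (10.6% of all genes) and 0 at an adjusted p under 0.05 (limma). The 9 were also lower in DD than in ND (median -0.48). Kupffer cell and macrophage markers (11 of 12 found) had 4 genes higher and 7 lower in DD against DN (median -0.22, 3 lower at an unadjusted p under 0.05), with a mean level of 4.62 to 5.37 in DN and 4.72 to 4.96 in DD. In DN against NN they had 4 higher and 7 lower (median -0.03). In DD against DN, mesothelial markers (7 of 10 found) had 2 higher and 5 lower (median -0.15). Vascular smooth muscle had 4 of 6 higher (median 0.13, 2 at an unadjusted p under 0.05 against 7.84% of all genes). Actg2, a smooth muscle actin with a mean signal of 2.51, near the floor, was higher by 0.49. Cholangiocyte markers had 3 of 5 higher (median 0.08, 1 at an unadjusted p under 0.05, Cldn4 at 0.48), and erythroid markers 3 of 4 (median 0.10). The part of these cells in the members' values was not tested. The mean level of the hepatocyte markers ran from 10.59 to 10.83 over the arrays, and 5 of 7 were lower in DD than in DN. Among them Apob, of apolipoprotein B, differed by -0.41 ± 0.12 (unadjusted p = 0.00303, adjusted p = 0.131, limma) and had an interaction of -0.58 ± 0.17 (unadjusted p = 0.00335, adjusted p = 0.118, limma).

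Counted over all members, 29 of 33 were higher in ND than in NN, against 48.4% of all genes, with a median difference of 0.16 against -0.01 over all genes. In DN against NN 23 of 33 were higher (44.5% of all genes; medians 0.11 and -0.03), and in DD against NN 23 of 33 (43.8%; medians 0.10 and -0.03). In DD against DN 17 of 33 were higher (51.6%; medians 0.01 and 0.01), in DD against ND 13 of 33 (47.1%; medians -0.04 and -0.02) and in ND against DN 19 of 33 (55.4%; medians 0.02 and 0.02). Leaving out 1 array at a time gave 25 to 29 members higher in ND against NN, 21 to 26 in DN against NN and 20 to 24 in DD against NN. With array spread as a covariate these counts were 22, 17 and 24. Without Lum, 28, 22 and 22 of 32 members were higher than in NN. With array spread as a covariate and Lum counted, 11 members instead of 4 were lower in ND than in NN. In that fit 26 were higher in DD than in DN and 24 were higher in DD than in ND.

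At an unadjusted p under 0.05, 4 of the 32 members other than Lum were higher in ND than in NN (Dcn, Mmp2, Hgf and Tagln; 2.75% of all genes) and 0 lower (1.88%). Without ND 3 that count was 1, without ND 4 it was 2, and with array spread as a covariate it was 1. In DN against NN, Dcn, Hgf and Loxl1 were higher (3 members; 6.78% of all genes) and 0 lower (6.63%), and 1 was lower without NN 1, NN 3, DN 2 or DD 1. In DD against NN, Dcn, Col1a1 and Tagln were higher (3 members; 1.33% of all genes) and 0 lower (2.25%). The higher count was 1 without NN 3 or DD 2, 7 without DD 3 and 5 with array spread as a covariate, and 1 was lower without DD 2. Groups did not overlap for 2 of these 32 members in DD above NN (Dcn and Tagln; 0.782% of all genes), for 1 in ND above NN (Dcn; 1.37%), for 1 in DN above NN (Dcn; 1.12%) and for 0 in DD above ND (1.46%).

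In DD against DN, 2 members were higher at an unadjusted p under 0.05 (Col6a2 and Col4a1; 7.84% of all genes) and 4 lower (Hgf, Vim, Fn1 and Reln; 10.6%), shares near those of all genes. With array spread as a covariate 3 were higher and 0 lower. The higher count was 4 without DN 4, 8 without DN 5 and 5 without DD 3, and the lower count was 2 without DN 2, DN 4, DD 1 or DD 4 and 1 without DD 3. In the interaction 2 were higher (Col6a2 and Ngfr; 8.12% of all genes) and 5 lower (Hgf, Vim, Dcn, Reln and Fn1; 11.9%), and with array spread as a covariate 0 were higher and 1 lower. The lower count was 3 without NN 1, DN 2 or DN 4, 2 without ND 4, DD 1 or DD 4, and 8 without DD 2. The higher count was 0 without ND 4 and 1 without NN 4, ND 1, DN 2, DD 2 or DD 4. The median interaction of the 33 members was -0.14, against 0.03 over all genes.

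In DD against ND, 0 of the 32 members other than Lum were higher (2.93% of all genes) and Vim and Hgf lower (2 members; 5.84%) at an unadjusted p under 0.05 (limma). The higher count was 1 without ND 3, DD 1 or DD 3, and the lower count was 1 without ND 4 or DD 1, 5 without DD 2 and 0 with array spread as a covariate. In ND against DN, Col4a2 and Thy1 were higher (2 members; 1.68% of all genes), with differences of 0.28 ± 0.12 and 0.31 ± 0.14, and 0 lower (1.15%). That count was 0 without ND 3 and 1 without ND 1, ND 2 or DN 2, and 1 member was lower without DN 2. For the average effect of deficient lactation, 22 of 33 members were higher (49% of all genes), 5 of them at an unadjusted p under 0.05 (1.6%) and 0 lower (1.55%). These were Col4a1 (0.49 ± 0.18), Tagln (0.37 ± 0.15), Col6a1 (0.32 ± 0.15), Mmp2 (0.28 ± 0.13) and Col4a2 (0.18 ± 0.084). Their number was 2 without NN 1, NN 3, ND 3, DN 2 or DD 2, 3 without ND 1, and 8 without ND 2. For the average effect of deficient pregnancy, 21 of 33 were higher (41.9% of all genes), or 14 without DD 2. Lum aside, Dcn (0.36 ± 0.13) was higher at an unadjusted p under 0.05 (1 member; 1.01%) and Thy1 the 1 lower (1.84%), which became 2 without DD 2. In the interaction 11 of 33 were higher (53.1% of all genes).

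**Figure D4:**
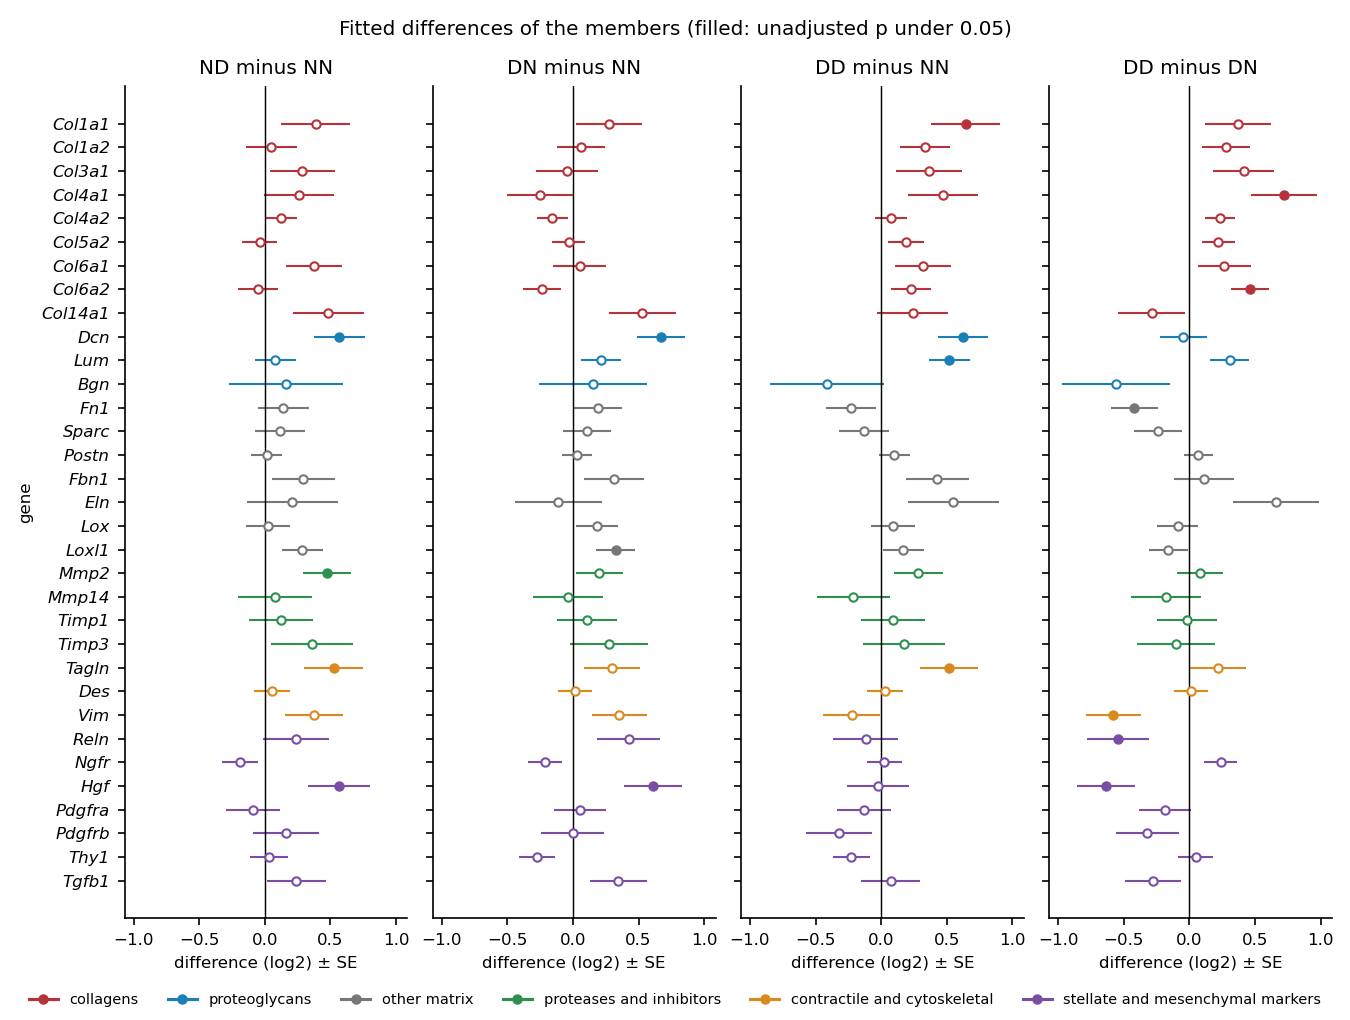
Fitted difference (log2, point) with its SE (line) for each of the 33 members in 4 comparisons, ND minus NN, DN minus NN, DD minus NN and DD minus DN. Filled points have an unadjusted p under 0.05, colours give the role, points right of the zero line number 29, 23, 23 and 17, and no member passed the adjusted test.

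Some pairs of members varied together across the arrays. Of 528 pairs, 22 had a correlation over the 17 arrays with an adjusted permutation p under 0.05 (21 positive), and 17 of these also passed by rank; the median r of all pairs was 0.14. After array spread was taken off, that median was 0.09. The 17 arrays share a normalization, which can itself tie signals together. Pairs of other genes were not correlated, so these counts cannot be read as particular to the members. Col3a1 and Col4a1 had r = 0.888 (permutation p = 1e-05, adjusted 0.00264) and rho = 0.853 (permutation p = 2e-05, adjusted 0.00528). That r was 0.836 without the 2 arrays farthest from the median of Col3a1, 0.874 after group means were taken off, and 0.892 after array spread was taken off. Col4a1 with Eln (r = 0.794, rho = 0.831, adjusted permutation p of 0.015 and 0.0114) and Col3a1 with Eln (r = 0.755, rho = 0.779, adjusted 0.0293 and 0.0198) completed a set of fibre and basement membrane genes, with r of 0.674 and 0.605 when 2 arrays were left out. Col1a1 and Col1a2, the chains of 1 protein, had r = 0.71 (adjusted permutation p = 0.0475) and rho = 0.662 (adjusted 0.0795). The chains of collagen IV, which share the stretch of 76 bases printed above, had r = 0.581 (adjusted permutation p = 0.156) and rho = 0.355 (adjusted 0.483).

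A separate set joined Bgn, Pdgfrb and Fn1. Bgn and Pdgfrb had r = 0.849 and rho = 0.896 (adjusted permutation p of 0.00264 and 0.00528), r = 0.861 without the 2 farthest arrays, and r = 0.706 after array spread was taken off. Bgn and Fn1 had r = 0.847 and rho = 0.876 (adjusted permutation p of 0.00704 and 0.00528), with r = 0.795 and 0.656 in those settings. By contrast Vim and Reln, at r = 0.720 and rho = 0.725 (adjusted permutation p of 0.0377 and 0.0422), had r = -0.356 after array spread was taken off. Fn1 and Reln, at r = 0.699 and rho = 0.743 (adjusted 0.0475 and 0.034), had -0.212. Dcn and Lum, neighbours in the proteoglycan family, had r = 0.549 and rho = 0.479 (adjusted permutation p of 0.191 and 0.304). Over the 36 pairs of collagens the median r was 0.40, and it was 0.40 after array spread was taken off, while over the 21 pairs of stellate and mesenchymal markers it was 0.13 and -0.12.

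**Figure D5:**
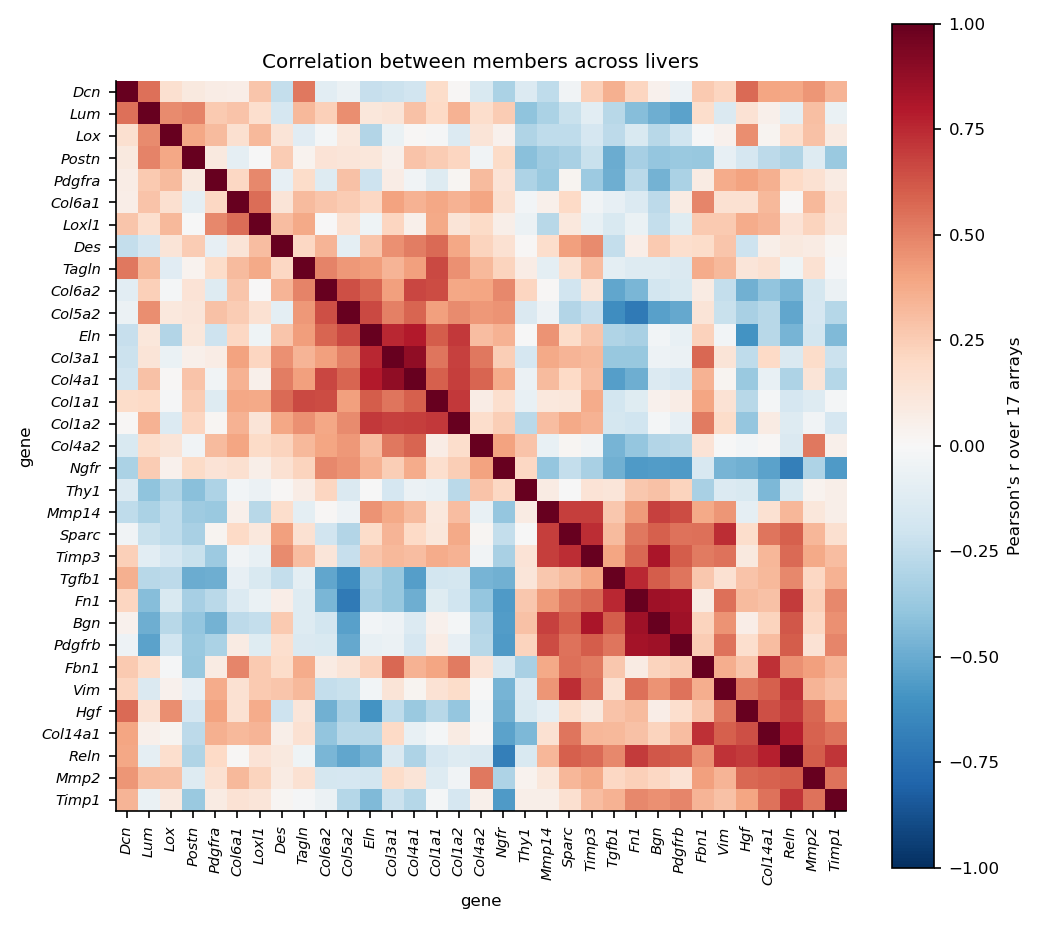
Pearson correlation over 17 arrays between every pair of the 33 members, ordered by average-linkage clustering, with colour from -1 to 1. A block of positive values joins Eln, Col3a1, Col4a1, Col1a1 and Col1a2, and another joins Tgfb1, Fn1, Bgn and Pdgfrb.

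Of the genes on related lists that are not members, 0 passed the adjusted test in any comparison (limma). Of 13 tested enzymes of collagen processing, 9 were higher in ND than in NN (median 0.09) and 5 higher in DD than in NN (median -0.04), with 0 at an unadjusted p under 0.05 in either. The 15 additional stellate cell markers tested also gave 0 at an unadjusted p under 0.05 in all 9 comparisons, and 9 of 15 were higher in DD than in NN (median 0.03). Of 13 other basement membrane genes, 11 were higher in DD than in DN (median 0.15, 1 at an unadjusted p under 0.05, against 7.84% of all genes) and 9 lower in DN than in NN (median -0.13, 2 at an unadjusted p under 0.05, against 6.63%). Their interaction was above 0 in 11 of 13 (median 0.21, 2 at an unadjusted p under 0.05, against 8.12%). In ND against NN, 3 of these 13 genes were higher and 10 lower (median -0.08), where 48.4% of all genes were higher. That direction is opposite to that of most members. Of 16 genes of the TGF-beta and PDGF pathway, 10 were higher in DD than in DN (median 0.11), with 2 higher and 1 lower at an unadjusted p under 0.05 (7.84% and 10.6% of all genes). The last was Tgfbr3, the co-receptor betaglycan, which was lower by 0.47 on the log2 scale (difference -0.47). Of 22 matrix turnover genes found, Mmp1 and Mmp13 lay below the floor, and of the 20 tested 11 were higher in DD than in NN (median 0.05). Adam17, a protease that sheds membrane proteins, had an interaction of -0.97 ± 0.41 (unadjusted p = 0.0288, adjusted p = 0.205, limma).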

How the data were processed

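Per the submitters' processing notes the authors used RMA in the affy package, whose versions these notes do not state. The deposited values are log2 signals of 36685 probe sets in 17 arrays (base not stated, taken as RMA returns it). RMA fits arrays jointly, so a signal is relative and carries no read depth. The platform's annotation gave 14824 probe sets 1 symbol, 829 several and 21032 none. Where a gene had several probe sets the one of highest mean was kept (234 of 14557 genes). Genes above the 25th percentile in at least 4 arrays were tested (12912).

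Differences are contrasts of 4 group means over 17 arrays in limma 3.58.1 (R 4.3.3; lmFit, eBayes, 13 residual degrees of freedom), tested on simulated data. Adjustment was by Benjamini-Hochberg within each comparison. Values after ± are SEs of differences and SDs of group means. Correlations had 2-sided permutation p-values of 100000 resamples. Members with an unadjusted p under 0.05, or the 4 of smallest p, are named in each comparison. The members and lists were chosen with earlier results of these data known. Labels give no batch or scan date. Replicate numbers were not treated as pairing arrays in the main fit. Deviations of same-numbered arrays had a median correlation of 0.04, from -0.45 to 0.53, with 11 of 24 pairs over 0.1. Arrays of other numbers had a median of -0.03, from -0.43 to 0.52, with 26 of 84 pairs over 0.1. The difference between these sets was not tested. Alternatives were other filters, all probe sets, trended and weighted fits, renormalization, centring, array spread and a replicate block as terms, and arrays left out.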

Additional observations from a re-analysis of the deposited data

Results flagged for a closer look

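Among 132 sets of 4 or 5 arrays of 1 gene and 1 group, 9 held an array far from the others, and chance alone sets apart about 1 in 20. Array NN 4 stood apart in 3 genes: Col6a2 at 5.39 above 5.26 to 5.27 in the other NN arrays, Ngfr at 3.65 above 3.37 to 3.40, and Col14a1 at 5.08 below 5.77 to 5.86. Dcn was at 2.64 in NN 3, below 3.00 to 3.07 in the other NN arrays. Col6a1 was at 6.24 in ND 1 above 5.63 to 5.70, and Lox in the same array at 1.77 below 2.23 to 2.32. Fbn1 was at 4.10 in ND 2 below 5.18 to 5.24, and Lum at 1.60 in ND 3 above 1.39 to 1.41. Col5a2 was at 3.89 in DD 4 above 3.51 to 3.56.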

How the results depend on the processing

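Members called stayed at 0 in every comparison and setting run, except the interaction without NN 2, where 2 passed (range 0 to 2 over arrays left out). Genes called in DD against DN (1) became 0 with no filter, all probe sets, centred arrays, array spread as a covariate, DN 3 and DD 3 left out together, or only the 2 groups fitted, 3 with the replicate block, and 0 to 1 with an array left out. Without NN 2, 18 genes passed in DN against NN (range 0 to 18) and 639 in the interaction (range 0 to 639). With the replicate block 1 gene passed for the lactation effect, and with all probe sets 1 in ND against DN. The median interaction of the members was 0.12 with array spread and -0.29 to -0.076 with an array left out. With array spread, Reln turned to 0.038 in DD against DN and to 0.13 in the interaction. The cause was not tested, apart from arrays or genes being fewer where they were left out. Recounts of members at an unadjusted p under 0.05 were chosen after seeing the data, and those with an array left out stand beside the counts. Over the other alternatives, with Lum counted, 1 to 7 were higher in ND against NN (7 with array weights), 2 to 5 in DN against NN, 3 to 7 in DD against NN and 2 to 11 for the lactation effect (11 with array weights). In DD against DN 2 to 7 were higher and 0 to 5 lower, in DD against ND 0 to 3 and 0 to 4, in ND against DN 1 to 3 higher, for the pregnancy effect 1 to 4 higher, and in the interaction 0 to 2 higher and 1 to 7 lower. Signal near the floor limits Lum, Lox and Postn.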
